A study of Mus musculus with 12 samples.

Results

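The 9 genes described here encode receptor chains of the interleukin-2, interleukin-7 and common gamma chain family and the kinases bound to them: Il2ra, Il2rb, Il2rg, Il7r, Il4ra, Il21r, Il15ra, Jak1 and Jak3. They were chosen by name, and all 9 were found among the 24421 genes of the deposited table. RNA-seq was made from sorted fetal thymocytes of C57BL/6 mice, with 12 libraries in 6 groups of 2. All groups lack Rag1, so they cannot rearrange a T cell receptor gene and stop at the CD25+ stage. The KO groups are Rag1KO Bcl6fl/fl LckCre+, in which Cre driven by the Lck promoter acts on a floxed Bcl6 gene in T lineage cells, and the Control groups are Rag1KO Bcl6fl/fl LckCre-, so that the presence of Cre and the loss of Bcl6 cannot be told apart. For each genotype there are unstimulated cells sorted as CD25+ (called CD25 here), and, from thymi cultured with anti-CD3 at 1 µg/ml for 2 days, cells sorted as CD4-CD8+ immature single positive (ISP) and as CD4+CD8+ double positive (DP). Anti-CD3 antibody replaces the missing pre-T cell receptor signal in Rag1-deficient thymi. Population and anti-CD3 culture therefore cannot be told apart in any comparison with CD25 cells. The labels give embryonic day E16.5, while the treatment protocol gives E17.5. Nothing states that replicate libraries are separate embryos or cultures, so p-values measure only the spread between these libraries, which may be technical.

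These cytokine receptors share the common gamma chain, encoded by Il2rg, which carries the kinase JAK3, while the signalling partner chain carries JAK1. The interleukin-7 receptor pairs IL7R with the common gamma chain and is the main survival and growth receptor of early thymocytes, which lose it at the DP stage. The interleukin-2 receptor adds the alpha chain IL2RA, which is CD25, to IL2RB and the common gamma chain, and IL2RB also serves interleukin-15. In thymocyte biology CD25 is the surface marker of the stage before beta-selection and is then lost.

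The libraries carry conflicting labels. The titles and the names of the sequencing libraries differ in population or genotype for 6 of the 8 anti-CD3 libraries, and only ISP Control 2 and DP KO 1 have the same population and genotype in both. The groups used here follow the titles. Cd4, whose product was part of the gate, lay between 191 and 344 RPKM in the 4 libraries titled DP and between 13.9 and 20.5 RPKM in the 4 titled ISP, so the libraries separated by the population in their titles. By the sequencing names, all 4 libraries titled ISP would be wild type and all 4 titled DP would be KO, so no comparison of genotypes within a population can be made from libraries on which both names agree. The deleted gene gives no check either: Bcl6 was at 1.63 and 2.01 RPKM in libraries labelled KO against 1.49 and 1.82 in Control libraries of CD25 cells. It was at 18.9 and 25.1 RPKM in libraries labelled KO against 11.6 and 11.9 in Control libraries of ISP cells, and at 87.7 and 111 RPKM in libraries labelled KO against 70.0 and 72.5 in Control libraries of DP cells, higher in each KO library of these 2 populations. The table gives a single value for the whole gene, which includes exons outside any deleted part, and deletion was not measured. Every result on KO below is a result on libraries labelled KO. The reads recovered from the table numbered 9658165 to 14228657 per library, and 10241 to 10568 genes reached 1 RPKM. These RPKM are scaled to gene length and between libraries, so levels can be compared between genes.

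On GRCm38 the receptor genes lie in a few places. Il2ra (chr2:11642807-11693193) and Il15ra (chr2:11705290-11734317) are neighbours on the plus strand with 12.1 kb between them, and Il4ra (chr7:125552120-125579474) and Il21r (chr7:125603429-125633570) are neighbours on the plus strand with 24.0 kb between them. Il7r (chr15:9505788-9530176) and Il2rb (chr15:78479256-78495271) are on the minus strand of chromosome 15, and Il2rg (chrX:101264378-101268255) is on the minus strand of the X chromosome. Jak1 (chr4:101152367-101265282) is on the minus strand and Jak3 (chr8:71676296-71690575) on the plus strand. The promoters shown are first those of Il2ra and Il7r, whose mean log2(RPKM + 1) differed most between populations. For Il2ra this rests on the CD25 cells, which were sorted by its product. Il2rb came next by that measure, but it had no promoter entry. By mean RPKM the largest fold was 36.39 for Il7r, 24.78 for Il2rb and 24.15 for Il2ra. The promoters of the neighbours Il4ra and Il21r were added after their values were seen, because both were highest in DP cells. Each window runs from 250 bases before to 50 bases after the transcription start in RefSeq (GRCm38.p6), read 5′ to 3′ on the gene's strand. The windows are chr2:11642542-11642841 (plus) for Il2ra, chr15:9529827-9530126 (minus) for Il7r, chr7:125552021-125552320 (plus) for Il4ra and chr7:125603179-125603478 (plus) for Il21r. Capitals mark matches, on either strand, to TTCNNNGAA (the STAT pattern), TTCCTNGAA (a BCL6 pattern, which is a subset of the STAT pattern) or GGAAAA (the NFAT core).
Il2ra: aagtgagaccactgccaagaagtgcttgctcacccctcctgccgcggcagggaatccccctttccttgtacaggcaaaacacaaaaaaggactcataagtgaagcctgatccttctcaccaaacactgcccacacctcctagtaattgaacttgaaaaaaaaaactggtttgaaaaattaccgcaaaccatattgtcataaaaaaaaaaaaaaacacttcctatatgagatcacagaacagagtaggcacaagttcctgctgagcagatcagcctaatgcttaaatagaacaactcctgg
Il7r: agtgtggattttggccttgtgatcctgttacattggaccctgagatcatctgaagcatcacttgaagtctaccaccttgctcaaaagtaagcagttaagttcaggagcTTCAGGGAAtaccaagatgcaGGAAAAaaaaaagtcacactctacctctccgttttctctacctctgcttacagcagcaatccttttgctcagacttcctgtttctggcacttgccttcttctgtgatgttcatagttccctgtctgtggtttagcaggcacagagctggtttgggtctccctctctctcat
Il4ra: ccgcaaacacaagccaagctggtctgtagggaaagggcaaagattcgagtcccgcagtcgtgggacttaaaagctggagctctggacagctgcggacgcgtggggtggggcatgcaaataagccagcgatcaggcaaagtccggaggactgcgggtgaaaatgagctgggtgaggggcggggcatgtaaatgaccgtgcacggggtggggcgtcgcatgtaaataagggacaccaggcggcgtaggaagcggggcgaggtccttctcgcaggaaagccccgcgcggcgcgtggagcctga
Il21r: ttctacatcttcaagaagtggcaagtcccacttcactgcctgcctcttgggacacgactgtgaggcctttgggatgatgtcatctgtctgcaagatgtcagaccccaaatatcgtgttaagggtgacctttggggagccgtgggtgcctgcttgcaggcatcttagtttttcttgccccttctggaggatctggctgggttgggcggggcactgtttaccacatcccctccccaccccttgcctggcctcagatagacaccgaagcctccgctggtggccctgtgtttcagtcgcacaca
Of these 4 windows, Il7r alone held a match, TTCAGGGAA to the STAT pattern starting 142 bases before the transcription start and GGAAAA starting 121 bases before it. Over the 9 windows of the 8 members with an entry, 1 held the STAT pattern, 0 the BCL6 pattern and 3 the NFAT core. Among all 32851 windows of the table these shares were 8.3%, 1.59% and 23.4%. A match says only that these letters are present, and a window without a match says nothing of binding elsewhere.

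The plot of the 9 genes by library shows the levels from which the comparisons were made. The largest differences lay between populations: Il7r and Il2ra were highest in CD25 cells, Il2rb in ISP cells, and Il4ra, Il21r and Il2rg in DP cells.

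**Figure D1:**
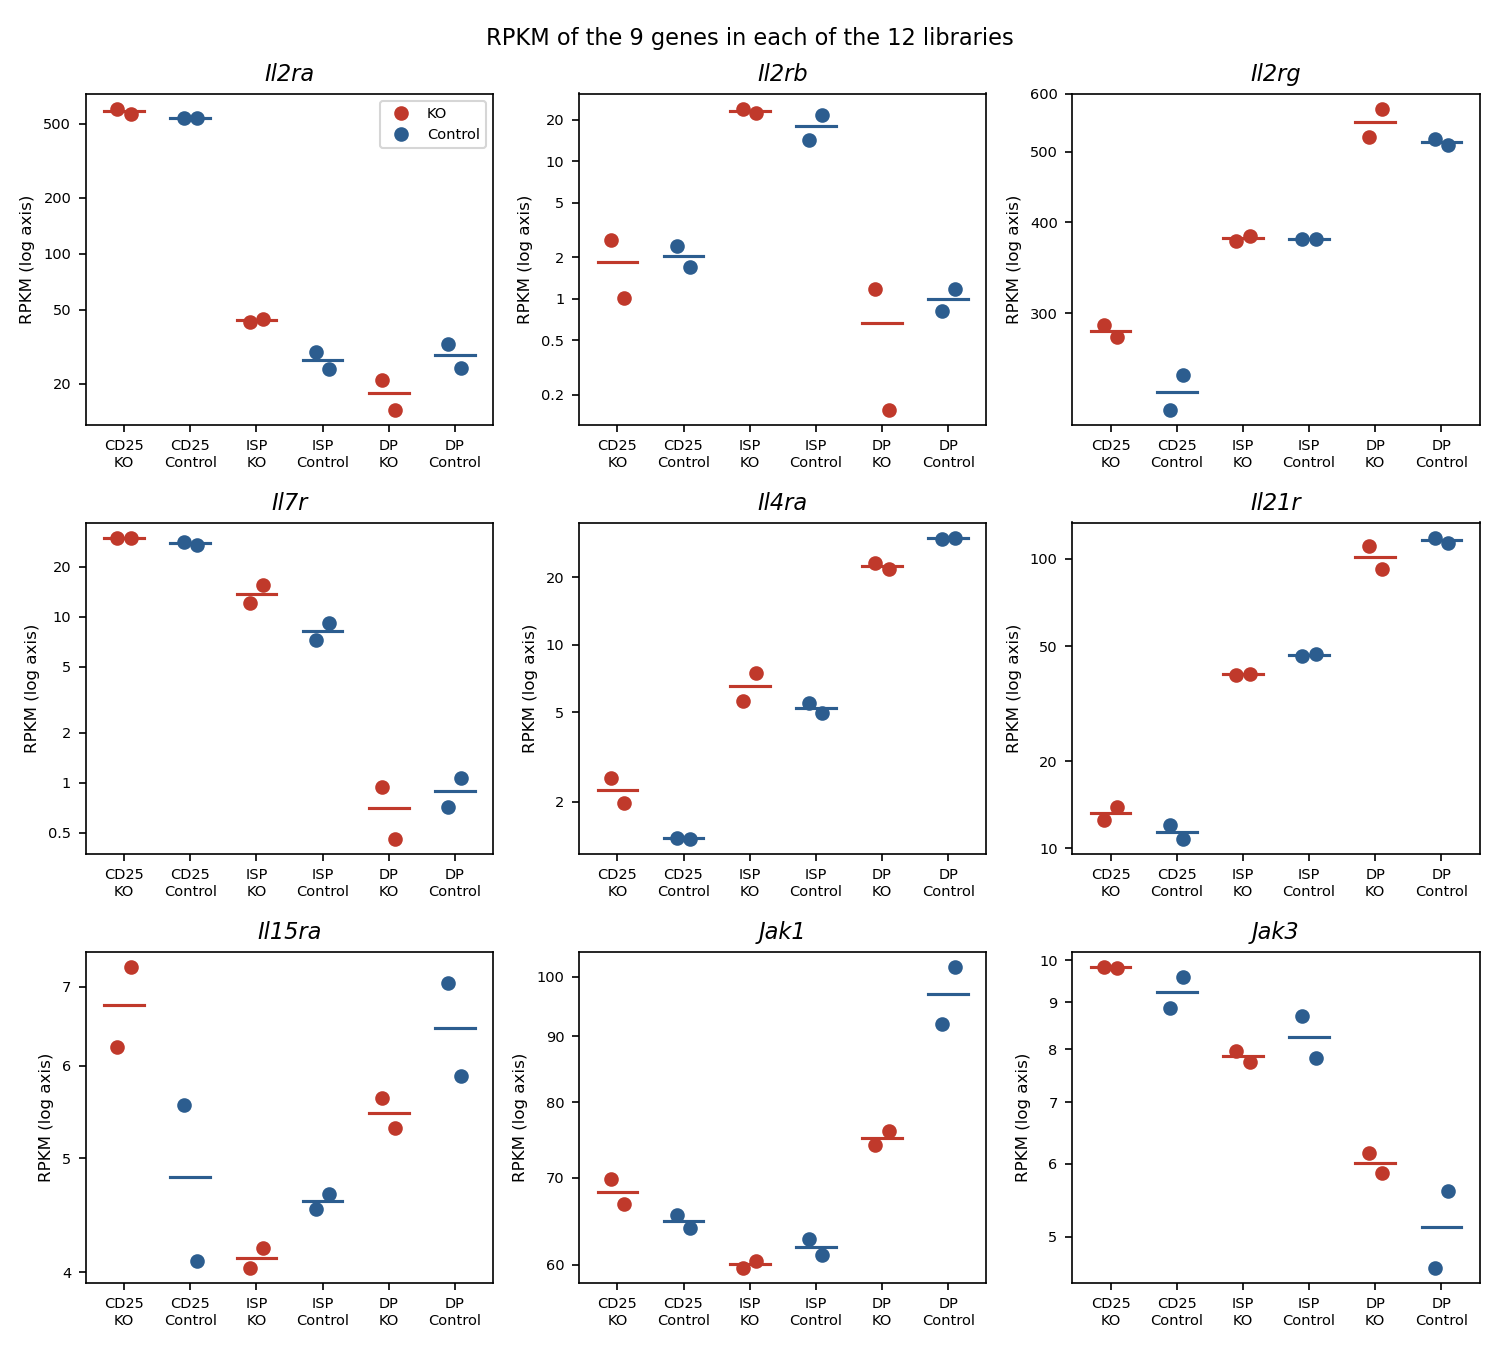
RPKM of the 9 genes (vertical axis, logarithmic, a scale of its own for each gene) in the 6 groups, with a point for each of the 2 libraries of a group and a line at their mean; KO libraries are red and Control libraries blue. Il2rb stood at 14.3 to 24.2 RPKM in the 4 ISP libraries and at 2.69 RPKM or less in the other 8.

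Il2rg, the chain common to all these receptors, was the most abundant member in ISP and DP cells and rose at each step. In CD25 cells it was at 289 and 278 RPKM in KO libraries and at 221 and 247 RPKM in Control libraries. In ISP cells it was at 377 and 384 RPKM in KO libraries and at 379 in each Control library. In DP cells it was at 524 and 573 RPKM in KO libraries and at 520 and 510 RPKM in Control libraries. The ranges of the 3 populations did not overlap. On the log2(RPKM + 1) scale, on which all differences below are given, Il2rg was 0.56 ± 0.05 (SE) higher in ISP than in CD25 cells (limma adjusted p = 4.93e-07) and 0.48 ± 0.05 higher in DP than in ISP cells (limma adjusted p = 1.16e-06), with n = 4 libraries in each population.

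Il2ra, which encodes CD25 itself, was at 603 and 564 RPKM in KO libraries and at 538 in each Control library of CD25 cells. ISP cells had 43.3 and 44.7 RPKM in KO libraries and 29.9 and 24.2 RPKM in Control libraries. DP cells had 21.1 and 14.5 RPKM in KO libraries and 33.0 and 24.3 RPKM in Control libraries. ISP cells thus stood 15.8-fold below CD25 cells by mean RPKM (35.5 in ISP against 560.8 in CD25 cells). The CD25 cells were sorted by CD25 protein and the ISP cells by CD4 and CD8. This difference therefore partly describes the sort of the CD25 cells and is given without a test. ISP and DP cells overlapped: averaged over genotypes Il2ra was 0.60 ± 0.11 lower in DP than in ISP cells (limma adjusted p = 0.000401). That difference stood in the KO libraries, where the DP mean was 17.8 RPKM and the ISP mean 44.0, and not in the Control libraries, where the DP mean was 28.6 RPKM and the ISP mean 27.0. In the 4 anti-CD3 libraries with the same population in both names it was -0.31, with a limma adjusted p of 0.318.

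Il2rb, the signalling chain shared by the interleukin-2 and interleukin-15 receptors, was high in ISP cells alone among the 3 populations. CD25 cells had 2.69 and 1.02 RPKM in KO libraries and 2.43 and 1.69 RPKM in Control libraries. ISP cells had 24.2 and 22.6 RPKM in KO libraries and 14.3 and 21.6 RPKM in Control libraries. DP cells had 1.18 and 0.156 RPKM in KO libraries and 0.810 and 1.18 RPKM in Control libraries. The lowest of these values rests on 4 reads (exact Poisson 95% interval 0.0425 to 0.399 RPKM, counting error only). Il2rb was 10.5-fold higher in ISP than in CD25 cells by mean RPKM, a log2 difference of 2.89 ± 0.22 (limma adjusted p = 3.35e-07). It was 24.8-fold lower in DP than in ISP cells by mean RPKM, a log2 difference of -3.58 ± 0.22 (limma adjusted p = 3.08e-08). The pseudocount of 1 shrinks both log2 differences below these folds, since the CD25 and DP values were 2.69 RPKM or less. With other pseudocounts, filters, scalings, fits and library sets they ran from 2.83 to 3.47 and from -4.84 to -3.54. Between DP and CD25 cells the libraries overlapped, and the log2 difference of -0.70 ± 0.22 (limma adjusted p = 0.0133) did not pass without DP KO 2 (-0.47, adjusted p = 0.0633), without CD25 KO 1 (-0.48, adjusted p = 0.0649) or without CD25 Control 1 (-0.61, adjusted p = 0.0511).

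Most markers of natural killer and innate lymphoid cells differed in the same direction as Il2rb. Of 9 tested genes of that list of 10, 8 were higher in ISP than in CD25 cells, beside 33.1% of all tested genes, and Nkg7 was lower. In DP cells 9 of the 9 were below their ISP level and passed the test, beside 35.0% of all tested genes. Ncr1, which defines natural killer cells, lay between 6.50 and 10.3 RPKM in ISP libraries, between 0.176 and 0.815 in CD25 libraries and between 0 and 0.844 in DP libraries. The 10 genes summed to 275 to 347 RPKM in CD25 libraries, 311 to 444 in ISP libraries, which overlapped with them, and 67.0 to 97.3 in DP libraries, and 9 of the 10 reached 1 RPKM in ISP libraries against 5 in each of the other populations. The list includes Gata3, which thymocytes also express. The part of such cells in the Il2rb level was not tested, and in bulk RNA fewer cells of a type and less RNA per cell cannot be told apart.

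Il7r, the interleukin-7 binding chain, fell at each step. It was at 30.1 and 30.0 RPKM in KO libraries and 28.5 and 27.2 RPKM in Control libraries of CD25 cells. In ISP cells it was at 12.1 and 15.6 RPKM in KO libraries and 7.27 and 9.16 RPKM in Control libraries. In DP cells it was at 0.940 and 0.459 RPKM in KO libraries and 0.710 and 1.07 RPKM in Control libraries, from 14 to 42 reads each. The 3 populations did not overlap, and DP cells were 36.4-fold below CD25 cells by mean RPKM. The log2 difference was -1.36 ± 0.11 for ISP against CD25 cells (limma adjusted p = 6.89e-07) and -2.71 ± 0.11 for DP against ISP cells (limma adjusted p = 1.3e-09). The log2 scale with a pseudocount of 1 understates the second fall, since the DP values lie near 1 RPKM.

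Il4ra and Il21r, the ligand-binding chains for interleukin-4 and interleukin-21, rose at each step. Il4ra was at 2.54 and 1.97 RPKM in KO libraries and 1.38 and 1.37 RPKM in Control libraries of CD25 cells. ISP cells had 5.61 and 7.44 RPKM in KO libraries and 5.51 and 4.98 RPKM in Control libraries. DP cells had 23.2 and 21.7 RPKM in KO libraries and 29.4 and 30.0 RPKM in Control libraries. By mean RPKM, DP cells stood 14.4-fold above CD25 cells, and the log2 difference was 1.30 ± 0.09 for ISP against CD25 cells (limma adjusted p = 1.25e-07) and 1.97 ± 0.09 for DP against ISP cells (limma adjusted p = 2.32e-09). Il21r was at 12.5 and 13.9 RPKM in KO libraries and 12.0 and 10.8 RPKM in Control libraries of CD25 cells. ISP cells had 39.8 and 40.2 RPKM in KO libraries and 46.1 and 47.1 RPKM in Control libraries. DP cells had 110.7 and 92.3 RPKM in KO libraries and 118.6 and 113.8 RPKM in Control libraries. No 2 populations overlapped for either gene, and Il21r was 8.85-fold higher in DP than in CD25 cells by mean RPKM. The log2 difference of Il21r was 1.74 ± 0.06 for ISP against CD25 cells (limma adjusted p = 4.4e-10) and 1.31 ± 0.06 for DP against ISP cells (limma adjusted p = 3.12e-09).

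Il15ra, the alpha chain of the interleukin-15 receptor and the neighbour of Il2ra, had the smallest difference between populations among the 7 receptor chains. It ranged from 4.08 to 7.29 RPKM in CD25 libraries, from 4.03 to 4.67 in ISP libraries and from 5.31 to 7.05 in DP libraries. It was 0.32 ± 0.10 lower in ISP than in CD25 cells, whose libraries overlapped (limma adjusted p = 0.0112, but 0.0505 without CD25 KO 2 and 0.0517 without CD25 Control 1), and 0.37 ± 0.10 higher in DP than in ISP cells (limma adjusted p = 0.00387). DP and CD25 cells differed by 0.05 (95% interval -0.15 to 0.26), below the spread between libraries.

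The kinases moved in opposite directions at the DP stage. Jak1, the kinase on the partner chains, lay between 64.0 and 69.8 RPKM in CD25 libraries, between 59.7 and 62.8 in ISP libraries and between 74.2 and 101.8 in DP libraries. Jak3, the kinase on the common gamma chain, lay between 8.87 and 9.84 RPKM in CD25 libraries, between 7.75 and 8.68 in ISP libraries and between 4.63 and 6.17 in DP libraries. From ISP to DP cells, Jak1 was 0.48 ± 0.04 higher (limma adjusted p = 8.11e-07) and Jak3 0.47 ± 0.07 lower (limma adjusted p = 9.54e-05). The ratio of Jak1 to Jak3 was 6.69 to 7.39 in CD25 libraries, 7.23 to 7.80 in ISP libraries and 12.0 to 19.9 in DP libraries. In DP cells Jak1 was lower and Jak3 higher in each KO than in each Control library. The KO libraries thus held the lower part of that DP range and the Control libraries the upper part. The ratio of Il2rg to Jak3 was 25.0 to 29.4 in CD25 libraries, 43.7 to 49.5 in ISP libraries and 85.0 to 112 in DP libraries. The ISP to CD25 differences were small, -0.12 ± 0.04 for Jak1 (limma adjusted p = 0.0244) and -0.22 ± 0.07 for Jak3 (limma adjusted p = 0.0206), and each rested on single libraries. The Jak1 call did not pass without CD25 KO 1, CD25 Control 1, ISP KO 1, ISP KO 2 or ISP Control 2 (adjusted p 0.0512 to 0.0872), nor the Jak3 call without CD25 KO 1, CD25 Control 2, ISP KO 2 or ISP Control 2 (adjusted p 0.0523 to 0.074).

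**Figure D2:**
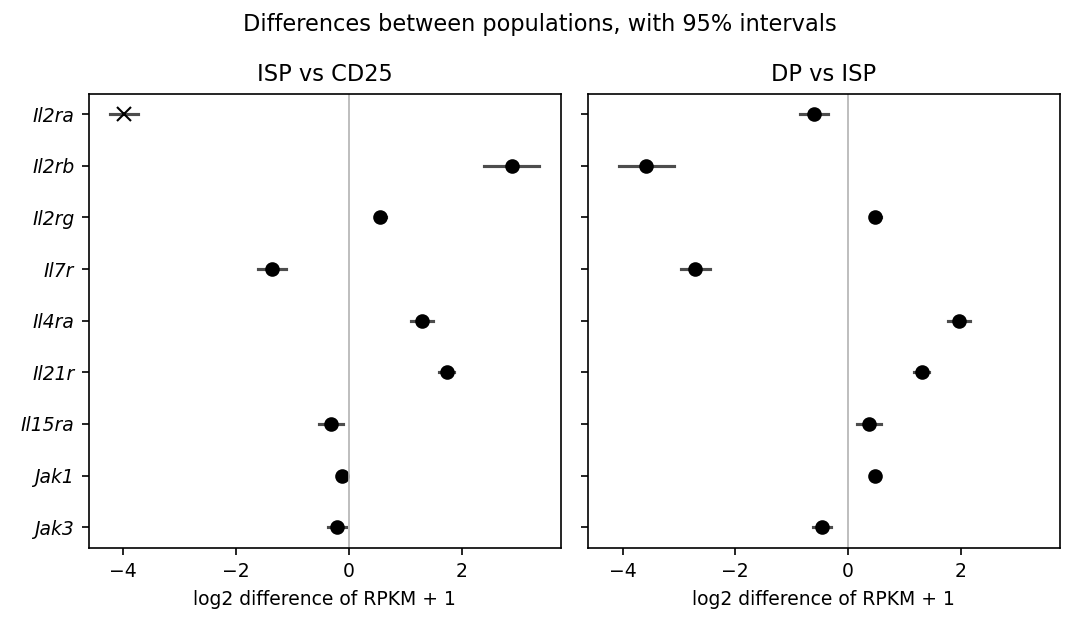
Differences of mean log2(RPKM + 1) between populations for the 9 genes (horizontal axis), ISP minus CD25 on the left and DP minus ISP on the right, with 95% intervals; filled points have a limma adjusted p under 0.05, as all points with a test have. The cross is Il2ra in ISP against CD25 cells, which has no test because its product was the gate of the CD25 cells. Il2rb moved by 2.89 and then by -3.58, and Il7r by -1.36 and then by -2.71.

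Counted over the members without Il2ra, 4 were higher and 4 lower in ISP than in CD25 cells, among 11303 genes tested of which 33.1% were higher and 30.9% lower. From ISP to DP cells all 9 members passed, 5 higher and 4 lower, where 35.6% of all genes were higher and 35.0% lower. Between DP and CD25 cells 4 of the 8 members other than Il2ra were higher, 3 were lower and Il15ra did not pass, against 37.3% of all genes higher and 38.4% lower. Most tested genes differed between populations, so the counts say little about these members. In libraries with the same population in both names, Il2rb, Il2rg, Il7r, Il4ra and Il21r kept their calls at both steps, with log2 differences of 3.00, 0.57, -1.20, 1.36 and 1.75 for ISP against CD25 cells and -3.54, 0.45, -2.83, 1.93 and 1.38 for DP against ISP cells. In these libraries the ISP against CD25 calls of Il15ra (adjusted p 0.185), Jak1 (0.228) and Jak3 (0.0755), the DP against ISP calls of Il2ra (0.318) and Il15ra (0.0999) and the DP against CD25 call of Il2rb (0.0518) did not pass. The median log2 difference of the 8 members other than Il2ra was 0.22 for ISP against CD25 cells, against 0.01 over all genes. It was -0.12 with Il2ra, whose product was the gate of the CD25 cells. For DP against ISP cells the median of the 9 members was 0.37, also against 0.01.

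The order of levels changed with the population. In CD25 cells it ran Il2ra, Il2rg, Jak1, Il7r, Il21r, Jak3, Il15ra, Il2rb and Il4ra, and only the last pair overlapped. In ISP cells it ran Il2rg, Jak1, Il21r, Il2ra, Il2rb, Il7r, Jak3, Il4ra and Il15ra, with overlap between Il21r and Il2ra, between Il2rb and Il7r, and between Il7r and Jak3. In DP cells it ran Il2rg, Il21r, Jak1, Il4ra, Il2ra, Il15ra, Jak3, Il2rb and Il7r, with overlap between Il21r and Jak1, Il4ra and Il2ra, Il15ra and Jak3, and Il2rb and Il7r.

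The 6 receptor chains other than the common gamma chain summed to 582.7 to 657.3 RPKM in CD25 libraries, 107.6 to 134.7 in ISP libraries and 134.5 to 189.5 in DP libraries. Il2ra made up 91.2% to 92.3% of this sum in CD25 cells. In ISP cells the sum was spread over Il21r (29.8% to 42.9%), Il2ra (21.7% to 33.6%), Il2rb (13.3% to 19.3%) and Il7r (6.76% to 11.6%). In DP cells Il21r made up 62.6% to 68.7%, Il4ra 14.3% to 17.0% and Il2ra 10.8% to 17.4%, while Il7r and Il2rb each stayed below 1 percent.

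**Figure D3:**
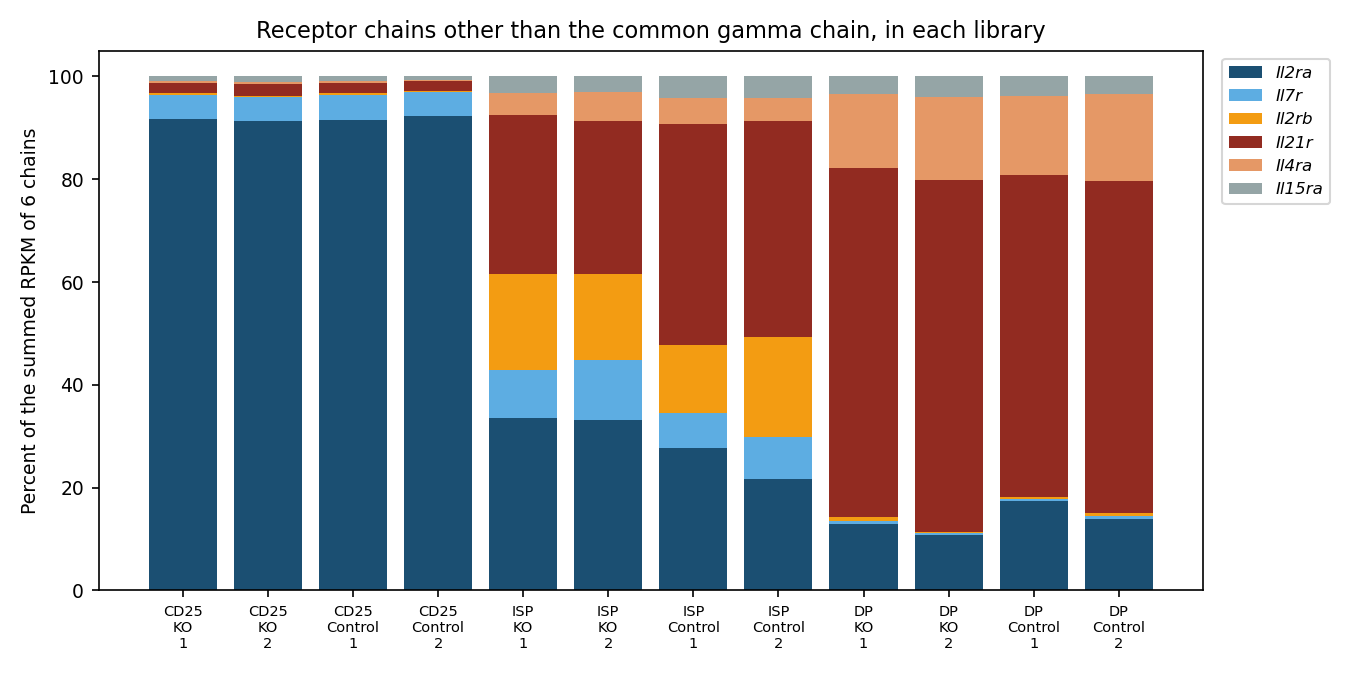
Share of each of the 6 receptor chains in their summed RPKM (vertical axis, percent) in each library, KO before Control within each population. Il2ra fills over 91.2% of every CD25 bar, and Il21r between 62.6% and 68.7% of every DP bar.

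The genes whose levels followed 3 of the members most closely over the 12 libraries are given as a description, with Pearson's r of log2(RPKM + 1) over 8558 genes with a group mean of at least 5 RPKM. All points share the population structure of the series. For Il2ra they were Sstr2 (r = 0.995), Qsox2, Cyfip1, Adgrg1 and Frmd4a (r = 0.992); Sstr2, a somatostatin receptor, averaged 32.0, 2.74 and 1.66 RPKM in CD25, ISP and DP cells. For Il2rb they were Klra5 (r = 0.989), Klrd1, Klrc1, Klrk1 and Ccr8 (r = 0.983), of which the first 4 encode killer cell lectin-like receptors and the last a chemokine receptor. Klrd1 averaged 1.34, 22.1 and 0.804 RPKM in CD25, ISP and DP cells. The Klra, Klrc and H2 genes have close relatives among which reads could be split, so their levels are uncertain. For Il7r they were Coro2a (r = 0.992), Il17rb, Tnfsf10, Lfng and H2-K1 (r = 0.991); H2-K1, a class I major histocompatibility gene, averaged 408 RPKM in CD25 cells, 192.5 in ISP cells and 35.0 in DP cells.

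Of the ligand genes, all but Tslp stayed below the filter. Of 8 ligand genes, Il9 had 0 reads in every library, and Il2, Il7, Il13, Il15 and Il21 reached at most 0.712 RPKM (12 reads). Il4 reached 1.16 RPKM (14 reads). Tslp, the thymic stromal lymphopoietin gene, was the only ligand tested, with 1.42 ± 0.44 RPKM in CD25 cells, 0.197 ± 0.094 in ISP cells and 0.376 ± 0.186 in DP cells (SD, n = 4 each). It was lower in ISP than in CD25 cells (limma adjusted p = 6.79e-05) and in DP than in CD25 cells (log2 difference -0.80 ± 0.14 SE, limma adjusted p = 0.000257).

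The counts of pathway genes between populations stand beside 33.1% of all tested genes higher and 30.9% lower in ISP than in CD25 cells, and 35.6% higher and 35.0% lower in DP than in ISP cells, and nothing particular to a list is read from them. Among 9 other Janus kinase and STAT genes, 1 was higher and 7 were lower in ISP than in CD25 cells, and 6 were higher and 0 lower in DP than in ISP cells. Stat5a and Stat5b transmit interleukin-2 and interleukin-7 signals. Stat5b did not pass the test for ISP against CD25 cells, nor Stat5a for DP against ISP cells. Stat5a averaged 32.0 ± 0.7 RPKM in ISP and 52.9 ± 1.0 in CD25 cells (log2 difference -0.71 ± 0.04 SE, limma adjusted p = 5.48e-08), and Stat5b 92.4 ± 10.0 in DP and 56.0 ± 2.3 in ISP cells (0.71 ± 0.05, limma adjusted p = 7.49e-08). The list's median log2 difference was -0.51 for ISP against CD25 cells and 0.39 for DP against ISP cells, where the median of all genes was 0.01 each time.

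Of 9 feedback and phosphatase genes, 5 were higher and 4 lower in ISP than in CD25 cells, and 3 were higher and 4 lower in DP than in ISP cells. Cish and Socs2, inhibitors that STAT5 is known to induce, were lower at each step by the same test. Cish averaged 2.91 ± 0.75 RPKM in ISP and 9.98 ± 0.90 in CD25 cells (-1.50 ± 0.13, limma adjusted p = 9.09e-07), and was at 0.609 ± 0.279 in DP cells (DP against CD25 -2.78 ± 0.13, limma adjusted p = 1.42e-09). Socs2 averaged 1.40 ± 0.84 RPKM in ISP and 6.89 ± 1.25 in CD25 cells (-1.77 ± 0.16, limma adjusted p = 1.49e-06). Socs1, a direct inhibitor of JAK kinases, ran the other way, with 173 ± 9 RPKM in DP and 77.9 ± 7.3 in ISP cells (1.15 ± 0.09, limma adjusted p = 1.86e-07). Socs3 was lowest in ISP cells: it averaged 9.63 ± 1.41 RPKM in ISP and 29.1 ± 4.1 in CD25 cells (-1.50 ± 0.10, limma adjusted p = 9.55e-08), and 22.7 ± 3.7 RPKM in DP against the same ISP mean (1.15 ± 0.10, limma adjusted p = 6.38e-07). Between DP and CD25 cells Socs3 was lower in DP. The values after ± are SDs over 4 libraries for levels and SEs for differences.

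Of 11 genes known as targets of these receptors, 6 were higher and 5 lower in ISP than in CD25 cells, and 3 were higher and 6 lower in DP than in ISP cells. The survival genes Bcl2l1 and Mcl1 and the cyclin gene Ccnd3 were higher in DP than in ISP cells, whereas Myc, Ccnd2, Bcl2, Gzmb, Osm and Pim2 were lower. Bcl2l1 averaged 148 ± 15 RPKM in DP and 57.4 ± 3.0 in ISP cells (1.35 ± 0.06, limma adjusted p = 2.52e-09), and Myc 29.2 ± 11.1 in DP and 143 ± 11 in ISP cells (-2.33 ± 0.06, limma adjusted p = 6.16e-11). Among 8 tested adaptor and PI3 kinase genes, 7 were higher in DP than in ISP cells and Pik3cd was lower. Pik3ip1, an inhibitor of PI3 kinase, had 119 ± 19 RPKM in DP and 42.9 ± 1.3 in ISP cells (1.43 ± 0.06, limma adjusted p = 1.73e-09), and Pik3cd, the leukocyte catalytic subunit, had 7.97 ± 0.18 in DP and 17.2 ± 1.7 in ISP cells (-1.01 ± 0.08, limma adjusted p = 1.91e-07). Of 12 tested receptor chains of related cytokines, 6 were higher and 6 lower in DP than in ISP cells; Ifngr1, the ligand-binding chain for interferon gamma, averaged 446 ± 16 RPKM in DP and 260 ± 11 in ISP cells (0.78 ± 0.05, limma adjusted p = 7.69e-08), and Il12rb2, a chain of the interleukin-12 receptor, 3.51 ± 0.69 in DP and 15.4 ± 0.6 in ISP cells (-1.87 ± 0.08, limma adjusted p = 1.3e-09).

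In CD25 cells no member differed between KO and Control libraries by the test. Among 10636 genes 2 passed (0.0188%), and 972 had an unadjusted p under 0.05, of which 3 were members: Il2rg, Il15ra and Il4ra. The test with precision weights on recovered reads (limma voom) called 14 genes and 0 members. Il2rg averaged 284 ± 8 RPKM in KO and 234 ± 18 in Control libraries (SD, n = 2 each; log2 difference 0.28 ± 0.07, limma adjusted p = 0.349). For 8 of the 9 members each KO library lay above each Control library, a pattern shown by 21.8% of all tested genes, while 0 of 9 lay below (18.4% of all tested genes); Il2rb overlapped. The largest difference among those 8 was Il4ra, with 2.25 ± 0.40 RPKM in KO and 1.37 ± 0.01 in Control libraries (95% interval of the log2 difference 0.07 to 0.83).

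In ISP cells no member passed either, among 40 of 11303 genes that did (0.354%). Il2ra and Il7r came nearest: Il2ra averaged 44.0 ± 1.0 RPKM in KO and 27.0 ± 4.0 in Control libraries (1.63-fold, log2 difference 0.69 ± 0.16, limma adjusted p = 0.091), and Il7r 13.8 ± 2.5 in KO and 8.22 ± 1.34 in Control libraries (1.68-fold, 0.68 ± 0.16, limma adjusted p = 0.0954). Without adjustment, 1494 genes had p under 0.05, among them 3 members, Il2ra, Il7r and Il21r. The call on Il2ra depended on the fit: its limma adjusted p was 0.0335 when the ISP libraries were fitted alone, and limma voom on recovered reads gave 0.0119 for Il2ra and 0.013 for Il7r. In 4 members both KO libraries lay above both Control libraries (21.1% of all tested genes), and in 3 members both lay below (24.1%). Il2rg was at 380 RPKM in KO and 379 in Control libraries, and its log2 difference of 0.00 had a 95% interval of -0.14 to 0.14.

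In DP cells 3 of the 9 members were lower in KO than in Control libraries and 0 were higher, where 7.78% of the 11303 genes were lower and 14.1% higher. Jak1 averaged 75.2 ± 1.3 RPKM in KO and 96.9 ± 7.0 in Control libraries, a log2 difference of -0.36 ± 0.06 (limma adjusted p = 0.00226). Il2ra averaged 17.8 ± 4.6 RPKM in KO and 28.6 ± 6.1 in Control libraries, -0.66 ± 0.16 (limma adjusted p = 0.0127). Il4ra averaged 22.5 ± 1.1 RPKM in KO and 29.7 ± 0.4 in Control libraries, -0.39 ± 0.13 (limma adjusted p = 0.0472). In each of these 3 genes both KO libraries lay below both Control libraries, as in 5 of the 9 members and 30.3% of all tested genes; 2 members lay above (32.0% of all tested genes). Jak1 passed without each library in turn. The Il2ra call did not pass without DP KO 2 (-0.41, adjusted p = 0.13) or without DP Control 1 (-0.45, adjusted p = 0.114), and the Il4ra call did not pass when any of the 4 DP libraries was left out (adjusted p 0.0764 to 0.231). The other 6 members did not pass. Il21r was at 102 ± 13 RPKM in KO and 116 ± 3 in Control libraries (-0.20, limma adjusted p = 0.13). With single libraries left out its difference ran from -0.33 to -0.07. Il21r passed without DP KO 1 (-0.33), a fit that leaves 1 DP KO library. Il15ra was at 5.47 ± 0.23 RPKM in KO and 6.46 ± 0.83 in Control libraries (-0.20, limma adjusted p = 0.318). Jak3 was at 6.02 ± 0.21 RPKM in KO and 5.12 ± 0.70 in Control libraries (0.20, limma adjusted p = 0.184). Il2rg was at 548 ± 34 RPKM in KO and 515 ± 7 in Control libraries (0.09, limma adjusted p = 0.349). Il7r and Il2rb stood at 0.156 to 1.18 RPKM and 4 to 42 reads in these 4 libraries and did not pass. The 95% intervals of the log2 difference were -0.52 to 0.19 for Il7r and -1.01 to 0.37 for Il2rb. At such levels the pseudocount of 1 shrinks differences, so these intervals do not bound the fold change. With other pseudocounts, filters, scalings and fits the differences ran from -0.38 to -0.16 for Il7r and from -1.05 to -0.32 for Il2rb.

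**Figure D4:**
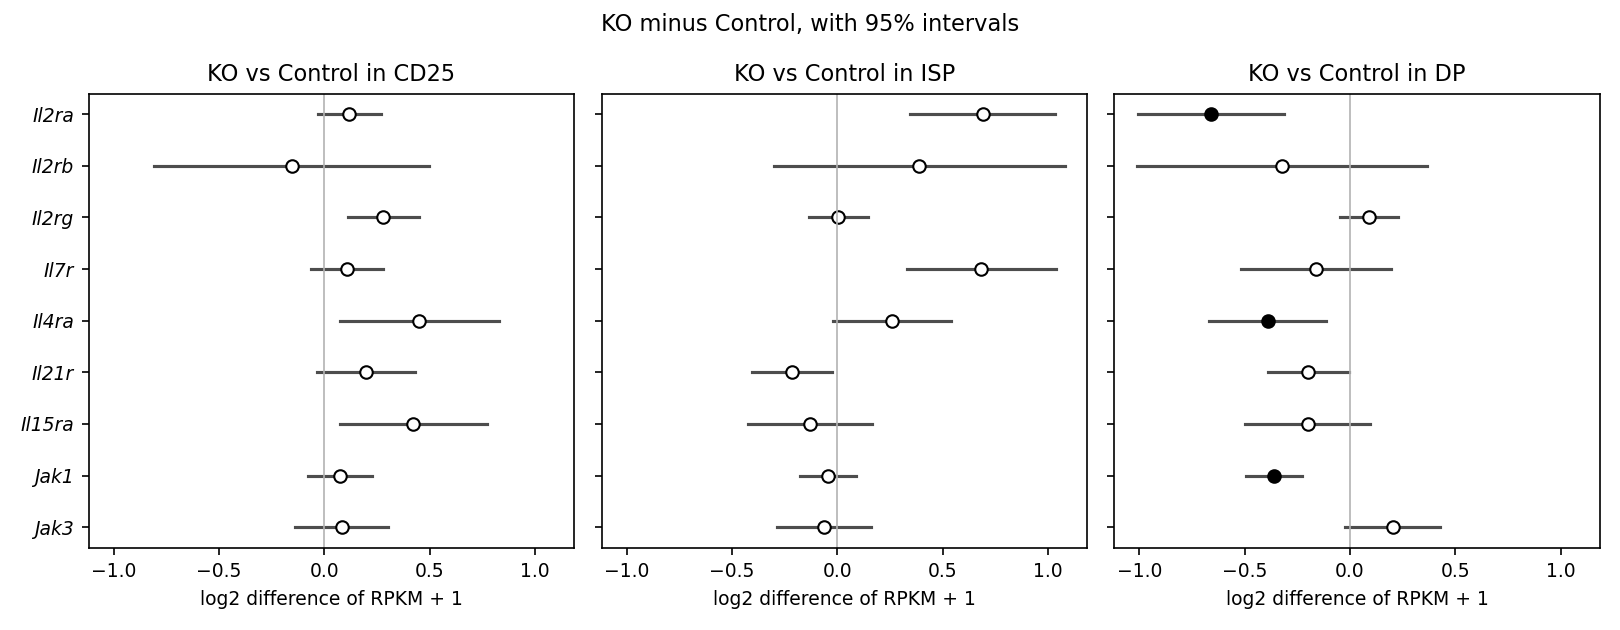
Differences of mean log2(RPKM + 1) between KO and Control libraries for the 9 genes (horizontal axis) in CD25, ISP and DP cells, with 95% intervals; filled points have a limma adjusted p under 0.05. Il2ra lies at 0.12 in CD25 cells, 0.69 in ISP cells and -0.66 in DP cells.

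Some markers of other cells and stages also differed between KO and Control libraries. In ISP cells 0.354% of all tested genes passed, and in DP cells 14.1% were higher and 7.78% lower in KO. Both KO libraries lay above both Control libraries for 21.8%, 21.1% and 32.0% of all tested genes in CD25, ISP and DP cells. Both lay below for 18.4%, 24.1% and 30.3%. The counts and sums that follow stand beside these shares, and nothing particular to a list is read from them. The 7 myeloid markers summed to 34.1 to 37.3 RPKM in KO and 18.9 to 25.2 in Control libraries of CD25 cells. They summed to 32.7 to 51.6 RPKM in KO and 9.99 to 11.0 in Control libraries of ISP cells, and to 51.3 to 78.0 RPKM in KO and 12.9 to 18.9 in Control libraries of DP cells. In DP cells 6 of the 7 reached 1 RPKM in KO and 3 in Control libraries. Of 5 tested myeloid markers, Lyz2, Adgre1 and Csf1r were higher in KO DP libraries, and Lyz2 was higher in KO ISP libraries, where the others did not pass. Csf1r, the defining macrophage marker, was at 0.757 and 2.23 RPKM in KO and 0.343 and 0.317 in Control DP libraries. The 7 mast cell markers summed to 25.0 to 29.9 RPKM in KO and 10.0 to 12.6 in Control ISP libraries, with 0 called of 1 tested (Cpa3). Cma1, the defining mast cell marker, had 4 and 9 reads in KO and 0 in Control ISP libraries. In CD25 libraries the 7 markers summed to 23.5 to 28.9 RPKM with Cma1 at 0, so the sum did not follow Cma1. The 4 markers of ISP and DP cells summed to 841 to 872 RPKM in KO and 1086 to 1106 in Control ISP libraries, with 0 called, and to 3218 to 3578 in KO and 3970 to 4019 in Control DP libraries, with Cd4 lower. The 10 natural killer and innate lymphoid markers summed to 88.3 to 97.3 RPKM in KO and 67.0 to 71.1 in Control DP libraries, with Tyrobp and Fcer1g higher. The 5 markers of the CD25 stage summed to 421 to 461 RPKM in KO and 363 to 431 in Control DP libraries, which overlapped. Of these, Hes1 was higher and Il2ra lower in KO. Of 5 T lineage markers, Tcf7 was lower in KO DP libraries. Epcam, the only thymic epithelium marker tested, was higher there. Foxn1, the defining marker of that list, had 0 reads in every DP library, and 1 of the 5 markers reached 1 RPKM in DP cells. The part of these cells or stages in the members' differences was not tested. The regulatory T cell marker Foxp3, whose cells also carry CD25, was at 0.097 RPKM or less in every library; the 3 markers of that list summed to 109.9 to 124 RPKM in CD25 libraries, 37.7 to 48.4 in ISP libraries and 13.7 to 16.4 in DP libraries, with 2 of 3 above 1 RPKM.

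The KO difference was compared between populations by a term for the difference itself. Il2ra was 1.35 ± 0.22 lower, on the log2 scale, in the DP difference than in the ISP difference (limma adjusted p = 0.0122), the only member among the 474 genes that passed (4.19% of 11303). In ISP cells both KO libraries lay above both Control libraries, and in DP cells both lay below. It did not pass without ISP KO 2 (-1.33, adjusted p = 0.055). For Jak1, Il7r and Il4ra the same term was -0.32, -0.85 and -0.65, with limma adjusted p of 0.0634, 0.0627 and 0.0661. Between ISP and CD25 cells the KO difference passed for 0 genes (0.0%), and so for 0 members, with 1105 genes at an unadjusted p under 0.05 and 19 genes called by limma voom.

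Other genes of the pathway differed between KO and Control libraries in DP cells. The counts that follow stand beside 7.78% of all tested genes lower and 14.1% higher in KO, and nothing particular to a list is read from them. Of 9 other Janus kinase and STAT genes, 5 were lower and 0 higher in KO: Stat3, Stat4, Stat5a, Stat5b and Jak2. Stat3 averaged 48.8 ± 1.2 RPKM in KO and 65.0 ± 2.1 in Control libraries (-0.40 ± 0.07, limma adjusted p = 0.00226), Stat4 18.6 ± 0.4 in KO and 25.1 ± 0.4 in Control libraries (-0.42 ± 0.07, limma adjusted p = 0.00241), and Stat5a 29.9 ± 2.0 in KO and 35.5 ± 1.1 in Control libraries (-0.24 ± 0.06, limma adjusted p = 0.0195). The list's median was -0.23, against 0.00 over all genes. Of 11 target genes, 3 were higher in KO, 0 lower and 8 did not pass. Ccnd2, a D-type cyclin gene, averaged 16.0 ± 1.5 RPKM in KO and 3.90 ± 0.70 in Control libraries (4.11-fold, log2 difference 1.80 ± 0.13, limma adjusted p = 3.03e-05). Myc averaged 38.5 ± 4.3 RPKM in KO and 19.8 ± 1.5 in Control libraries (0.92 ± 0.08, limma adjusted p = 0.000103), and Bcl2, a survival gene, 4.48 ± 0.12 in KO and 3.23 ± 0.33 in Control libraries (0.38 ± 0.10, limma adjusted p = 0.0243).

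Among 12 tested related receptor chains, Il12rb1 and Il10ra were higher and Il6st was lower in KO than in Control DP libraries. Il12rb1, the chain shared by the interleukin-12 and interleukin-23 receptors, averaged 26.3 ± 6.0 RPKM in KO and 12.6 ± 0.6 in Control libraries (0.99 ± 0.13, limma adjusted p = 0.000595). Il6st, which encodes the signal chain gp130, averaged 8.04 ± 2.97 RPKM in KO and 14.3 ± 1.5 in Control libraries (-0.79 ± 0.18, limma adjusted p = 0.00913). Of 9 feedback genes, Ptpn2 and Ptpn6 were higher and Ptprc was lower, and of 8 adaptor and PI3 kinase genes Grb2 was higher and Pik3ip1 lower. In the CD25 and ISP comparisons of KO with Control libraries, 0 genes of these lists passed.

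**Figure D5:**
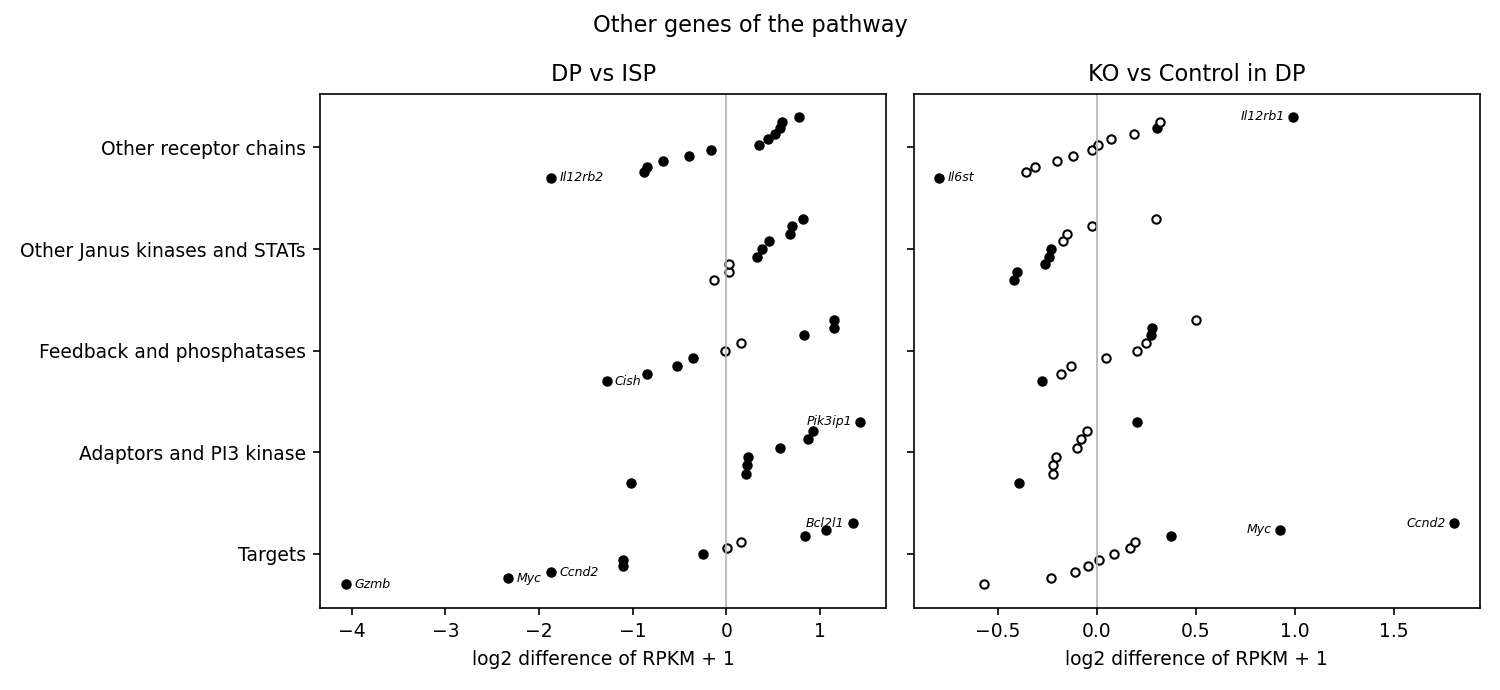
Differences of mean log2(RPKM + 1) for the tested genes of 5 pathway lists (rows), DP minus ISP on the left and KO minus Control in DP cells on the right (horizontal axes, separate scales); filled points have a limma adjusted p under 0.05. In the right panel Ccnd2 lies at 1.80 and Myc at 0.92, and the 5 filled Janus kinase and STAT points all lie below 0.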

How the data were processed

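RNA was measured by RNA-seq in 12 libraries of sorted thymocytes. The deposited values are RPKM per gene, a unit read from the values themselves, since the file's header names only samples. BWA and GRCm38 are named in the submitters' processing notes; the sources used here name no counter, annotation, version or filter. For each gene a length was sought at which its RPKM became whole numbers of reads within 0.02 reads. Such a length was found for all 17114 genes above 0, and gave the reads per gene (9658165 to 14228657 per library). Since the length was chosen that way, the whole numbers are not a separate check. The recovered totals were 96.43% to 101.87% of the read totals implied by the RPKM. The deposited RPKM are already scaled between libraries: a median-of-ratios factor computed from them differs from 1 by at most 2.2e-10 in any library. The members and lists were chosen with earlier results of these data known.

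Values were taken as log2(RPKM + 1). The test was limited to genes that reached 1 RPKM in 2 or more libraries and was made with limma 3.58.1 in R 4.3.3 (empirical Bayes with a trend, Benjamini-Hochberg adjustment over all tested genes, threshold 0.05). KO against Control in CD25 cells was fitted on 4 libraries, all other comparisons on 12 libraries in 6 groups. The scripts were tested on simulated data. Groups follow the titles. Named genes are all 9 members, up to 3 genes of smallest p per list and comparison, and the 5 most similar genes for 3 members. For KO against Control in DP cells, counts of a list name all genes that passed. Between populations, the genes behind a count are named only in part. Alternatives were another pseudocount, other filters, other scalings, a replicate block, single libraries left out, other sets of libraries, groups by sequencing library name, and limma voom on recovered reads, added after seeing the data. Poisson intervals cover counting error only. RefSeq promoter windows come from GRCm38.p6, and gene coordinates from GENCODE on GRCm38.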

Additional observations from a re-analysis of the deposited data

Results flagged for a closer look

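The difference between KO and Control libraries was unequal in DP and ISP cells for Il2ra, by a test of the difference itself: -1.35 on the log2 scale, DP minus ISP (limma adjusted p = 0.0122). Il2ra averaged 17.8 RPKM in KO and 28.6 in Control DP libraries (-0.66, limma adjusted p = 0.0127), and 44.0 RPKM in KO and 27.0 in Control ISP libraries (0.69, limma adjusted p = 0.091, so the ISP side did not pass alone). The test did not pass with no filter on low values (adjusted p 0.0534) or without ISP KO 2 (0.055). Each group has 2 libraries, and the genotypes rest on the titles alone.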

How the results depend on the processing

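Apart from the grouping by sequencing library name, 761 of 813 recomputed values of single members kept their direction and their side of the threshold, 33 lost and 11 gained a call, and 8 changed sign, all with a library left out of a small difference that had no call. The signs that changed were those of Il2rb in CD25 cells (range -0.59 to 0.28; 0.28 without CD25 KO 2 and 0.02 without CD25 Control 1) and in DP cells (-0.78 to 0.14), Il7r in DP cells (-0.37 to 0.044), Il2rg (-0.008 to 0.017) and Jak3 (-0.13 to 0.004) in ISP cells, all KO minus Control, and Il15ra for DP against CD25 cells (-0.037 to 0.145). The planned count model on recovered reads was not run, since the deposited unit is RPKM.

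In DP cells the KO call on Il4ra was lost with a pseudocount of 0.1 (adjusted p 0.0806) and with no filter (0.099), and that on Il2ra with no filter (0.0531), which left 1 member called. In the comparison of KO differences between DP and ISP cells, Il2ra missed the threshold with no filter (0.0534), leaving 0 members among 185 genes. There, 2 members among 600 genes passed with the filter at 5 RPKM, 2 among 389 with values scaled to the plain total, and 3 among 641 with limma voom, against 1 among 474. In ISP cells the KO count was 8 with no filter, 67 with the filter at 5 RPKM and 181 with voom, and 1 member passed with the ISP libraries alone and 2 with voom. In CD25 cells the KO count was 1 with either a pseudocount of 0.1 or no filter, 9 with all 12 libraries in the fit and 14 with voom. The KO difference in ISP minus that in CD25 cells passed for 1 gene with a pseudocount of 0.1, 2 with no filter and 19 with voom. Jak1 missed the threshold for ISP against CD25 cells with TMM scaling (adjusted p 0.0625).

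With single libraries left out, where the remaining library of a group is assumed to vary like the other groups, the KO count ran from 4 to 93 in CD25 cells, from 6 to 56 in ISP cells and from 844 (without DP KO 2) to 2604 in DP cells, where 1 to 3 members passed. The difference of KO differences between DP and ISP cells ran from 64 (without ISP KO 2) to 1053 genes (without DP KO 1) with 0 to 2 members, and that between ISP and CD25 cells from 0 to 3 genes.

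The titles share replicate numbers, but the labels do not say what the numbers pair, and deviations of same-numbered libraries correlated by -0.066 to 0.125. With the replicate number as a block, 1 member passed in ISP cells (Il2ra, adjusted p 0.0462), Il4ra in DP cells had an adjusted p of 0.0585, the KO count was 3 in CD25, 42 in ISP and 2503 in DP cells, and 1 gene passed for ISP minus CD25.

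Grouping by sequencing library name sets libraries titled DP against libraries titled ISP in each genotype comparison. KO against Control then passed for 5502 genes and 7 members in ISP cells and for 5622 genes and 8 members in DP cells, while DP against ISP passed for 0 genes and 0 members. The difference of KO differences passed for 0 genes and 0 members between DP and ISP cells, and for 3372 genes and 4 members between ISP and CD25 cells. Signs changed, for KO against Control in ISP cells, for Il2ra (-0.78), Il2rb (-3.86), Il7r (-2.90), Il21r (1.22), Il15ra (0.28) and Jak1 (0.53), and in DP cells for Il4ra (2.05), Il21r (1.40), Il15ra (0.47), Jak1 (0.43) and Jak3 (-0.55). They changed for DP against ISP cells for Il2ra (0.29), Il2rb (0.044), Il2rg (-0.032), Il4ra (-0.041) and Jak1 (-0.039), for Jak1 in ISP against CD25 cells (0.13), and for Il2rb (1.12) and Il15ra (-0.11) in DP against CD25 cells. The difference of KO differences between DP and ISP cells became 0.34 for Il2ra, 0.39 for Il7r and 0.15 for Il4ra. Which set of names is right was not tested beyond the Cd4 levels given above.

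Groups of 2 libraries limit the KO comparisons, and Il7r and Il2rb rest on 4 to 42 reads in DP cells.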
